A study of Arabidopsis thaliana with 12 samples.

Results

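The genes described here are AT1G74470 (CHLP), the geranylgeranyl reductase, and AT1G78620 (VTE6), a kinase of phytyl phosphate, 2 of the 691 genes that could be named on an array of 3439 features. They were chosen by their function and by the intensity difference between the genotypes, known from earlier results of this comparison, in which VTE6 stood near the top of the named genes that were higher in the mutant. The difference between the genotypes is therefore given for both genes as a description, and calls over all features serve as background only. Each gene had 1 feature assigned to it alone, feature 2360 for CHLP and feature 1510 for VTE6, and 0 features that it shared with other genes.

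Phytol is the long isoprenoid tail that anchors chlorophyll in the thylakoid membrane and that also forms the tail of tocopherols (vitamin E) and phylloquinone. CHLP makes the phytyl chain by reducing the geranylgeranyl chain, either as the free diphosphate or once it is attached to chlorophyll. When chlorophyll is broken down, the released phytol can be used again: a phytol kinase (VTE5) adds the first phosphate and VTE6 the second, which gives phytyl diphosphate for tocopherol synthesis. Both enzymes thus feed the same compound, CHLP from new isoprenoid and VTE6 from recycled phytol.

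Total RNA of Arabidopsis thaliana, ecotype Columbia 0, was measured in 6 wild-type (WT) samples and 6 samples of a double mutant, pete1 pete2, that has neither isoform of plastocyanin, an electron carrier of the thylakoid lumen between the cytochrome complex and photosystem I. Both genotypes grew on MS media, which supply mineral nutrients. The labels give no tissue, age, light regime, mutant allele or number of plants. In the table of linear intensities, columns 1 and 2, 3 and 4, and 5 and 6 of each genotype agreed closely, with a median absolute log2 difference over features of 0.0957 to 0.134 within such pairs and 0.300 to 0.540 between other columns. Each pair was averaged and counted as 1 replicate, so that n = 3 per genotype. Whether the pairs came from separate plants is not stated, so the spread between them may be technical.

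Column medians of the deposited intensities lay between 0.485 and 0.627 in WT. In the mutant they were 0.399 and 0.402 for columns 1 and 2, 0.659 and 0.659 for columns 3 and 4, and 0.343 and 0.341 for columns 5 and 6, so that columns 3 and 4 stood apart from the other mutant columns. Of the markers of green tissue, 3 of 6 had a feature of their own (PSBW, PSAN and LHB1B2), and all 3 were above 0 in every column. Of 5 root plastid markers, 0 had such a feature. Per column only 170 to 264 of the 3439 features were at 0, so these counts do not tell which tissue was used. Intensities below are on the linear scale after quantile normalization, which gives every column the same distribution of values, unless they are called deposited.

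VTE6 was higher in all 3 mutant pairs than in all 3 WT pairs, by 1.61-fold on average. In WT its normalised intensity was 0.550 in the pair of columns 1 and 2, 0.545 in columns 3 and 4, and 0.523 in columns 5 and 6. In the mutant it was 0.791, 0.814 and 1.013 in the same order. The WT pairs lay almost on top of each other, and the mutant pair of columns 5 and 6 stood above the other 2. The WT mean was 0.539 ± 0.0141 and the mutant mean 0.873 ± 0.122 (SD, n = 3), a log2 difference of 0.69 (SE 0.12). The 12 single columns did not overlap either: the highest WT column was at 0.589 and the lowest mutant column at 0.766. Columns of a pair are close to each other, so this is no separate result. Of all 3438 features, 170 did not overlap over the 12 columns in either direction. In the deposited values the VTE6 columns did overlap, with mutant columns 1 and 2 at 0.665 and 0.630 and WT column 1 at 0.703.

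CHLP showed no such separation. Its normalised intensity in WT was 2.52 in columns 1 and 2, 2.42 in columns 3 and 4, and 2.87 in columns 5 and 6. In the mutant the pairs measured 3.06, 2.26 and 2.44, so that both the brightest and the dimmest pair of the 6 were mutant pairs and the WT pairs fell between them. The WT mean was 2.60 ± 0.236 and the mutant mean 2.59 ± 0.419 (SD, n = 3), a log2 difference of -0.02 (SE 0.15). Of the 9 possible differences between a mutant and a WT pair, 4 were positive for CHLP, and they ran from -0.35 to 0.34 on the log2 scale. For VTE6 9 of 9 were positive, from 0.52 to 0.95.

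**Figure D1:**
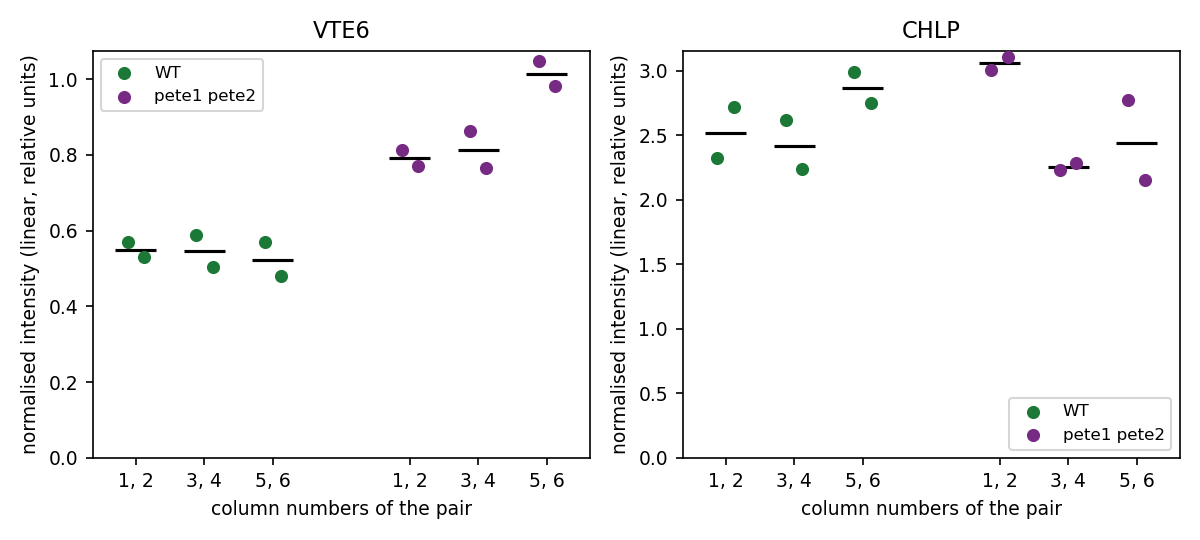
Normalised intensity (linear scale, relative units) of VTE6 (left) and CHLP (right) in the 12 columns. Points are columns, black bars are pair means, green is WT and purple is pete1 pete2. The VTE6 columns of the mutant, from 0.766 upwards, lie above those of WT, which reach 0.589, whereas those of CHLP overlap.

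As a background over the whole array, limma called 1 of 3438 features higher in the mutant (0.0291%) and 0 lower (0%) at a Benjamini-Hochberg adjusted p under 0.05, and 0 of these calls were CHLP or VTE6. At an unadjusted p under 0.05 there were 159 higher and 92 lower. The pair means of 341 features (9.92%) did not overlap between the genotypes, 191 of them (5.56%) with the mutant higher and 150 (4.36%) with the mutant lower. VTE6 was 1 of these 191. Nothing is read from either count, since the genes had been chosen with their difference known.

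The normalised values can also be read as ranks within an array, which quantile normalization keeps, so that they restate the same pattern. Ranked among the 3438 features of its own column, VTE6 lay between the 47.8th and the 56.7th percentile in the WT columns and between the 67.7th and the 79.0th in the mutant columns. The percentiles of the genotypes did not overlap. CHLP lay between the 92.9th and the 95.4th percentile in WT and between the 92.5th and the 95.6th in the mutant, so the mutant range enclosed that of WT.

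The spread of VTE6 over the WT pairs was small for this array. The SD of its log2 intensity was 0.038 in WT, where the median of the 598 named genes with no value at the floor was 0.31, and 99.0% of those genes had a larger one. In the mutant its SD was 0.20 against a median of 0.35, with 77.3% of the genes above it. CHLP also varied less than most, with an SD of 0.13 in WT and 0.23 in the mutant, exceeded by 86.1% and 70.4% of the genes. In size, 20 of the named genes had a larger positive log2 difference than VTE6, and 8.17% of all features one at least as large in either direction. VTE6 was chosen with its difference known, and such a choice can favour both a large difference and a small spread. Its places among the other genes are therefore a description only.

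**Figure D2:**
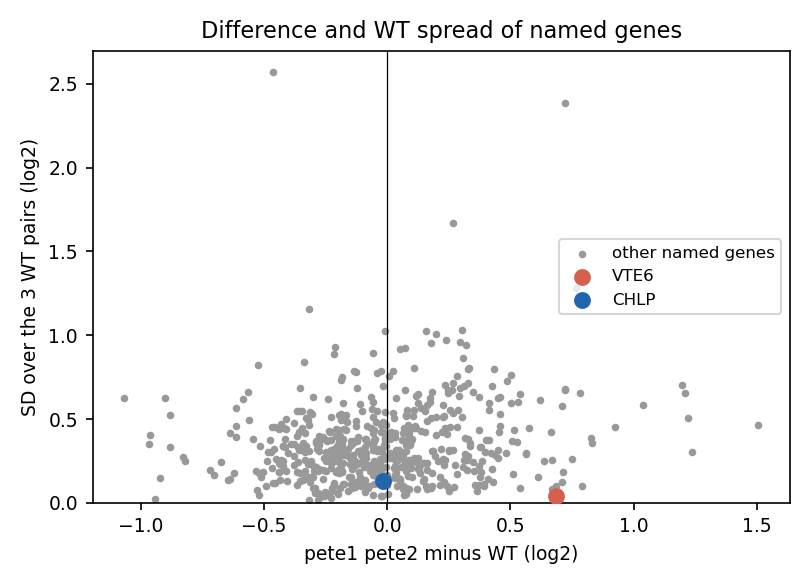
Log2 difference between pete1 pete2 and WT (x axis) against the SD of the log2 intensity over the 3 WT pairs (y axis), 1 point for each of 598 named genes with no value at the floor. VTE6 (0.69, SD 0.038) lies near the bottom edge to the right, with 20 named genes further right, and CHLP (-0.02, SD 0.13) lies low near the centre. VTE6 was chosen with its difference known.

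The small WT spread of VTE6 held for the pair means more than for the single columns. The columns of a pair differed for VTE6 by 0.10, 0.23 and 0.25 on the log2 scale in the 3 WT pairs, and by 0.074, 0.17 and 0.092 in the mutant pairs. The columns of each WT pair thus differed by more than the 3 WT pair means did from each other, since these lay between -0.93 and -0.86 on the log2 scale. For CHLP the columns of a pair differed by 0.23, 0.23 and 0.12 in WT and by 0.047, 0.035 and 0.37 in the mutant. The last value, for mutant columns 5 and 6, was larger than that of 87.3% of the features with no value at the floor, whose median in that pair was 0.12. The 2 columns measured 2.77 and 2.15.

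The separation of VTE6 depended on how the arrays were scaled to each other. In the deposited intensities VTE6 measured 0.678, 0.527 and 0.538 in the WT pairs and 0.647, 0.969 and 0.821 in the mutant pairs. The mutant pair of columns 1 and 2 then lay below the WT pair of columns 1 and 2, and the groups overlapped. The log2 difference was 0.47 (SE 0.20) in the deposited values and 0.49 (SE 0.18) after scaling to the total, where the groups overlapped as well. After centring on the median the groups were apart again and the difference was 0.75 (SE 0.21). These scalings also move the array as a whole, since the median log2 difference of all features was -0.27 in the deposited values, -0.26 after scaling to the total and -0.01 after quantile normalization or median centring. Relative to that median, VTE6 differed by 0.70 after quantile normalization. It differed by 0.75 as deposited, after scaling to the total and after median centring. The deposited, total-scaled and median-centred values differ only by a factor for each array. Subtracting the median largely removes this factor, so the agreement among them is no separate result.

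The log2 difference of CHLP was -0.02 after quantile normalization, -0.05 (SE 0.17) as deposited and -0.04 (SE 0.19) after scaling to the total. Relative to the median of all features it was -0.01 after quantile normalization and 0.22 to 0.23 under the other 3 scalings. As for VTE6, these 3 agree because they differ only by a factor for each array. With median centring the difference itself was 0.22 (SE 0.41), with the mutant pairs at 3.76, 1.54 and 3.72 and the WT pairs at 1.98, 2.62 and 2.64. Median centring set the mutant pair of columns 3 and 4, which had the high column medians, far below the other 2 mutant pairs. The genotypes overlapped for CHLP under all 4 scalings.

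**Figure D3:**
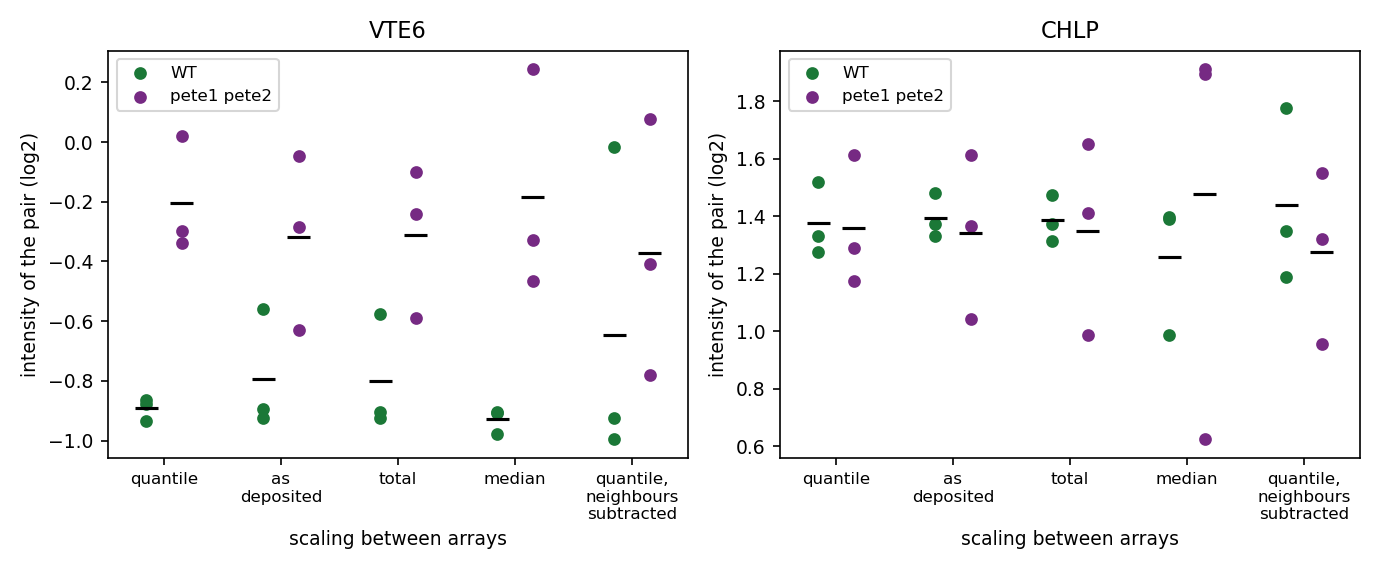
Intensity of VTE6 (left) and CHLP (right) in each pair on the log2 scale under 4 scalings between arrays, and after quantile normalization with neighbouring features subtracted. Points are pair means (green WT, purple pete1 pete2) and black bars are genotype means. VTE6 is separated under quantile normalization and median centring and overlaps in the other 3, while CHLP overlaps in all 5.

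The ratio of both genes within an array does not change when a whole array is multiplied by a factor. VTE6 over CHLP in the deposited intensities, as a log2 ratio, was -1.89, -2.30 and -2.37 in the WT pairs and -2.24, -1.09 and -1.65 in the mutant pairs. The mutant pair of columns 1 and 2 lay among the WT pairs and the other 2 mutant pairs lay above all 3 WT pairs. Of the 9 differences between a mutant and a WT pair, 8 were positive. The mean log2 ratio of WT was -2.19 ± 0.26 and that of the mutant -1.66 ± 0.58 (SD, n = 3), a difference of 0.53. In the quantile-normalised values the same difference was 0.70. Because each feature has its own response, only the change of this ratio between arrays can be read, not its level.

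The mutant pairs placed the genes in different orders. VTE6 was brightest in mutant columns 5 and 6 after normalization and in columns 3 and 4 as deposited, whereas CHLP was brightest in mutant columns 1 and 2 in both. The ratio in the mutant therefore spanned 0.212 in columns 1 and 2 to 0.470 in columns 3 and 4 on the linear scale, compared with 0.193 to 0.270 in WT.

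**Figure D4:**
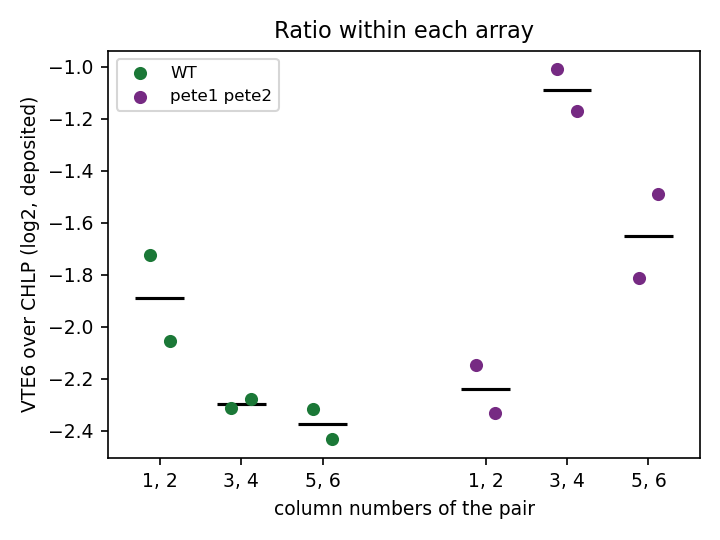
Log2 ratio of the deposited intensities of VTE6 over CHLP within each of the 12 arrays. Points are columns, black bars are pair means, green is WT and purple is pete1 pete2. The mean of mutant columns 1 and 2 (-2.24) lies within the range of the WT pair means, -2.37 to -1.89, and the other mutant pair means lie above it. Single WT columns run from -2.43 to -1.72, so that mutant column 5 (-1.81) lies among them.

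Features with nearby numbers differed together on these arrays. As a description over features, not over independent replicates, the differences between WT pairs correlated with r of 0.48, 0.37 and 0.31 between adjacent numbers and of 0.40, 0.31 and 0.20 at a distance of 288 numbers, the peak beyond the nearest ones, which was taken as the length of a printed row. The distance of 288 was picked because the mean of these same correlations was highest there, so their size is no separate result. Of the 7 measured features within 3 numbers of VTE6 or 288 away, 6 had a positive and 1 a negative log2 difference between mutant and WT, from -0.20 to 1.01 with a median of 0.14. Feature 1509, the next number before VTE6 and not named here, differed by 0.71 and feature 1508, which measures AT2G44760, by 0.36. The pair means of both were higher in every mutant pair than in every WT pair, as for VTE6. Over all features this held for 5.56%, and the median log2 difference was -0.01. With 7 neighbours that differ together, nothing is read from these counts. Feature 1511, the next number after it, differed by 0.14 and its groups overlapped.

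When the median deviation of these neighbours was subtracted on each array, the log2 difference of VTE6 became 0.27 (SE 0.36) and its groups overlapped. The intensity was then 0.987, 0.502 and 0.527 in the WT pairs and 0.753, 0.582 and 1.055 in the mutant pairs. The neighbours' deviation was -0.84 in WT columns 1 and 2 and 0.48 in mutant columns 3 and 4, and within 0.12 of 0 in the other 4 pairs. Such a shift, of -0.41 for VTE6, was matched or exceeded in size by 3.84% of all features. The part of the neighbourhood in the difference of VTE6 was not tested, and a median over 7 features is itself imprecise. For CHLP, 4 of 6 neighbours had a positive and 2 a negative difference, with a median of 0.11. Feature 2648, 288 numbers after CHLP, differed by 0.70 and was higher in every mutant pair than in every WT pair, beside 5.56% of all features. Nothing is read from this count either. The groups of the other neighbours of CHLP overlapped. After subtraction the log2 difference of CHLP was -0.16 (SE 0.26).

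The genes whose pattern over the 6 pair means was most like that of VTE6, among 597 other named genes with no value at the floor, were AT4G00170 (Pearson's r = 0.97), AT2G44760 (r = 0.96) and UBA1A, an RNA-binding protein (r = 0.92). AT2G44760 is the array neighbour described above. The mean of AT4G00170 was 0.371 ± 0.0328 for WT and 0.609 ± 0.0739 for the mutant (SD, n = 3), that of AT2G44760 1.53 ± 0.0747 and 1.97 ± 0.108, and that of UBA1A 0.288 ± 0.0254 and 0.388 ± 0.0433. Their log2 differences were 0.71 (SE 0.13), 0.36 (SE 0.09) and 0.43 (SE 0.13). As for VTE6, these depended on the processing. In the same order they were 0.46, 0.24 and 0.13 as deposited, and 0.55, 0.088 and 0.48 with neighbouring features subtracted. A likeness over 6 values that contains the difference between genotypes selects genes with that difference.

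Once the mean of each genotype was subtracted, other genes were most like VTE6: AT3G56010 (r = 0.996), AT1G78790, listed as MHF2 (r = 0.96), and Cpn60beta3, a subunit of the plastid chaperonin (r = 0.94). Their log2 differences were -0.25 (SE 0.18), -0.29 (SE 0.31) and 0.35 (SE 0.23), so that 2 of these 3 genes had a difference of the opposite sign to that of VTE6. None of these differences was precise: that of AT1G78790 was -0.03 when mutant column 3 was left out and -0.57 when column 4 was, and that of Cpn60beta3 was 0.13 without mutant columns 5 and 6. That of AT3G56010 changed sign to 0.099 with neighbouring features subtracted. Each r was among the highest of 597 genes over 6 values less 2 means, so high values come from the selection alone. VTE6 hardly varied between WT pairs (log2 SD 0.038, against 0.20 in the mutant), so its r rests mostly on the mutant pairs.

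For CHLP, the most similar genes were AT5G38750 (r = 0.87), AT4G05070 (r = 0.82) and AT5G19940 (r = 0.82), and after subtraction of the genotype means AT1G21660 (r = 0.92), AT4G05070 (r = 0.90) and AT5G38750 (r = 0.87). The same 2 genes, AT4G05070 and AT5G38750, were among the 3 under both measures. Because CHLP differed by only -0.02 between the genotypes, subtracting the genotype means hardly changed its values. The 2 measures are therefore nearly the same for CHLP, and the recurrence is no separate result. Each r is also among the highest of 597 genes. AT5G38750 had a log2 difference of -0.06 (SE 0.23), AT4G05070 one of 0.30 (SE 0.37), AT5G19940 one of -0.22 (SE 0.24) and AT1G21660 one of 0.23 (SE 0.13). None of these 4 genes is next to CHLP in feature number. CHLP and VTE6 were not alike over the pairs, with an r of -0.18, and an r of -0.40 after the genotype means were subtracted, both over 6 values.

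Of the genes around the phytyl chain, few were measured alone. From 8 lists with 91 genes, covering phytyl supply, tocopherol, chlorophyll synthesis and breakdown, phylloquinone, plastid isoprenoid supply, carotenoids and the entry to gibberellins, 2 genes had a feature of their own, and 6 lists had 0. The tocopherol enzymes and the phytol kinase VTE5 were among those without one. With limma, 0 of the 2 measured genes passed at an adjusted p of 0.05 in either direction, beside 0.0291% of all features higher and 0% lower. An unadjusted limma p under 0.05 was reached by 0 of the 2, beside 159 higher and 92 lower of all 3438 features. With 2 genes, nothing is read from these counts.

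CHLM, the magnesium protoporphyrin methyltransferase of chlorophyll synthesis, measured 0.685, 0.541 and 0.741 in the WT pairs and 0.584, 0.867 and 0.427 in the mutant pairs. As for CHLP, the brightest and the dimmest pair were both mutant pairs, though the bright one was columns 3 and 4, where CHLP was dimmest. Its log2 difference was -0.11 (SE 0.30), and between -0.40 and 0.12 when a column or pair was left out.

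Z-ISO, the zeta-carotene isomerase of carotenoid synthesis, which draws on the same geranylgeranyl diphosphate, measured 0.931, 0.555 and 0.574 in WT and 0.593, 0.441 and 0.300 in the mutant. Only the mutant pair of columns 1 and 2 overlapped with WT. Its log2 difference was -0.64 (SE 0.34), with a limma adjusted p of 0.909, and it was -0.94 as deposited and -0.37 without mutant columns 5 and 6.

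A further 8 features listed a gene of these lists together with other genes, so that their signal cannot be given to 1 gene. Of these, 6 had a positive and 2 a negative log2 difference after quantile normalization, a split that became 3 and 5 as deposited or scaled to the total and 4 and 4 with median centring. After quantile normalization 0 were without overlap between the genotypes, beside 9.92% of all features. With limma 0 passed, with a lowest adjusted p of 0.845, beside 0.0291% of all features higher and 0% lower. An unadjusted limma p under 0.05 was reached by 0 of them, beside 159 higher and 92 lower of all 3438 features. With 8 features, nothing is read from these counts. Features 525 and 613 each listed both LIL3 genes and no other. The LIL3 proteins are light-harvesting-like membrane proteins that hold geranylgeranyl reductase at the thylakoid. Feature 525 measured 1.007, 1.068 and 1.16 in the WT pairs and 1.18, 1.002 and 1.30 in the mutant pairs, a log2 difference of 0.10 (SE 0.13). This difference was -0.05 in the deposited values and -0.03 after scaling to the total. Feature 613 measured 1.054, 1.103 and 0.905 in WT and 1.44, 1.87 and 1.07 in the mutant, a log2 difference of 0.49 (SE 0.23), so that only the mutant pair of columns 5 and 6 lay within the WT range. This difference was 0.23 as deposited, 0.25 after scaling to the total and 0.31 without mutant columns 3 and 4. With neighbouring features subtracted, feature 525 differed by 0.42 and feature 613 by 0.44. Feature 613 was brightest in mutant columns 3 and 4, where 525 was dimmest.

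Feature 2077 listed both HEME1 and HEME2, uroporphyrinogen decarboxylases of the early chlorophyll pathway, and no other gene, and differed by -0.03 (SE 0.28). The other 5 features listed 1 gene of the lists beside genes outside them. Features 833 and 2963 listed VTE7 of the phytyl supply list and differed by 0.005 (SE 1.02) and 0.38 (SE 0.27). Feature 476, with CLD1, differed by -0.11 (SE 0.58) and feature 2801, with HEMB1, by 0.01 (SE 0.22). Feature 2310, which listed MENG of the phylloquinone list, had the largest log2 difference of the 8, 0.69 (SE 0.41). It measured 1.109, 1.050 and 2.16 in the WT pairs and 1.87, 1.70 and 3.31 in the mutant pairs. In both genotypes the pair of columns 5 and 6 was the brightest.

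**Figure D5:**
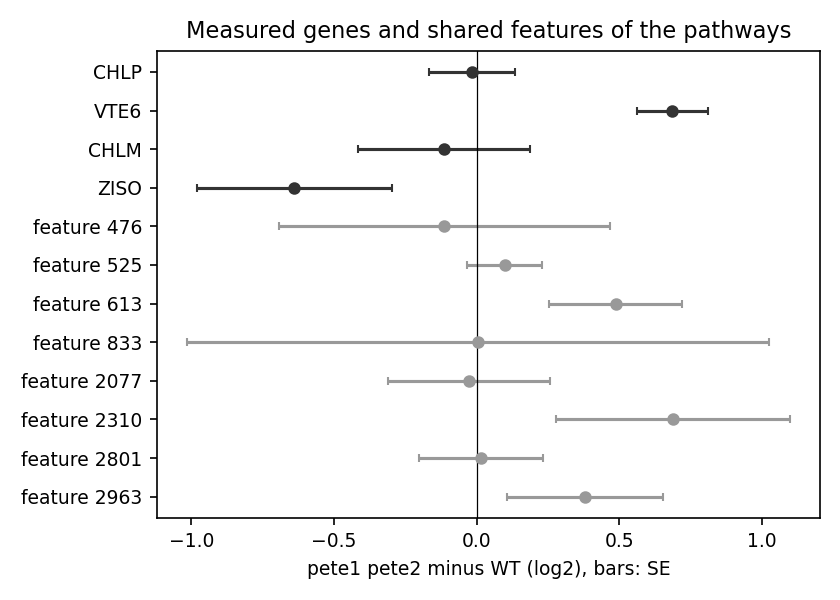
Log2 difference between pete1 pete2 and WT for CHLP, VTE6, the 2 other measured pathway genes (black) and the 8 features shared by several genes (grey). Bars are standard errors of the limma fit over 3 pairs per genotype. VTE6 (0.69) and feature 2310 (0.69) lie furthest to the right and Z-ISO, drawn as ZISO (-0.64), furthest to the left.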

How the data were processed

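The file held linear intensities as deposited, 1 column for each of 12 samples and 3439 features. The scanner, the background correction and what the intensities are relative to are not given in the sources used here, and the signal background is unknown. The members and gene lists were chosen with earlier results of these data known.

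After quantile normalization of the columns, a floor of 0.0225 (the 1st percentile of positive deposited intensities) was applied before log2. CHLP and VTE6 were above this floor in every column. The only gene with more than 1 feature was averaged, which left 3438 tested features. Column pairs were then averaged on the log2 scale. Samples were grouped by their titles. Gene names came from the platform annotation for features with 1 gene (692, of which 690 matched TAIR10.1 names), while 870 features listed several and 1877 were not listed. Coordinates are left out because the array's build is not given in the sources used here.

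All features were fitted with limma 3.58.1 in R 4.3.3 (two-sided, Benjamini-Hochberg adjustment), after a check of the script on simulated data. SEs are those of this fit. The number of arrays limits the precision. With 3 against 3, the smallest p of an exact permutation test is 0.1. Text names followed a rule: both members, all measured list genes, and the 3 named genes most like each member by each measure. Feature 1509, feature 1511, feature 2648 and the shared features were named after their values were seen. The alternatives were other scalings, a pseudocount of 0.0872, filters on dim features, other variance models, omission of columns or pairs, blocks, and neighbour subtraction.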

Additional observations from a re-analysis of the deposited data

How the results depend on the processing

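The difference of VTE6 was positive and its groups were apart under 20 of 23 alternatives. Of these 23, 18 only left out a column or pair. Since the 12 columns of VTE6 did not overlap, an omission could hardly make the groups overlap, and little is read from these 18. Among the alternatives that changed the values themselves, the groups were apart with median centring and with the pseudocount. The groups overlapped as deposited (log2 difference 0.47), after scaling to the total (0.49) and with neighbouring features subtracted (0.27). Leaving out 1 column or pair gave 0.55 (without mutant columns 5 and 6) to 0.77 for VTE6, -0.14 to 0.074 for CHLP, and 0.53 to 0.88 for VTE6 over CHLP. CHLP overlapped under 23 of 23, and its difference was 0.22 with median centring. The number of features called was 1, and it was 0 as deposited, after scaling to the total or centring on the median, and with the replicate block on the pair number, 2 without the dimmest 50% or with array weights, 3 with neighbours subtracted, 19 with pairs as a random block and 224 with the 12 columns as separate samples, the last 2 of which can give too small p-values. It ranged from 0 to 2 when a column or pair was left out. Features without overlap ranged from 326 to 886 when a column or pair was left out (fewer values overlap less) and were 170 with the 12 columns. The count of measured pathway genes called was 0 in each of these, the replicate block included. The deviations of WT and mutant pairs with the same number correlated over features with r of 0.32, 0.00056 and 0.39. The main fit treated the samples as unpaired, and whether pairs of the same number shared their processing was not tested. The cause of these changes was not tested. Background signal, which would limit dim features, is not given in the sources used here.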
